A study of Mus musculus with 6 samples.

Results

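The 10 genes described here encode subunits of the Polycomb repressive complexes PRC1 and PRC2. They were taken by name from the 22706 genes of the deposited table. Ezh1, Ezh2, Eed, Suz12, Rbbp4 and Jarid2 belong to PRC2. Bmi1, Ring1, Rnf2 and Cbx7 belong to PRC1. Their RNA was measured in muscle stem cells (MuSCs), the Pax7-expressing cells that rebuild muscle fibres, in 6 libraries of 3 groups with 2 libraries each. The control group was wild type. The mdx group carried the Dmd mutation that removes dystrophin and causes a muscular dystrophy. The third group carried the same mutation together with loss of Sirt6 in the muscle lineage (Sirt6mKO/mdx), through a floxed Sirt6 allele and a constitutive Cre that the Pax7 promoter drives from early muscle development on. All labels give the strain as C57BL/6. Cells were sorted from dissociated limb and trunk muscle without further treatment, the libraries were made after removal of ribosomal RNA, and the study describes the animals as young adult males.

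PRC2 places the repressive mark H3K27me3 on histone H3 through EZH2 or its paralog EZH1. PRC1 ubiquitinates histone H2A through RNF2 or its paralog RING1, and its canonical form reads H3K27me3 through a CBX protein. In MuSCs these complexes are known for keeping genes of other lineages silent and for restraining the cell cycle inhibitor locus Cdkn2a, and EZH2 is typically found in proliferating cells while EZH1 is kept in cells at rest.

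Each value below is a normalized read count, that is, reads on the exons of a gene divided by a size factor for the library and rounded by the authors. The libraries held about 4396968 to 9743941 reads on genes. The 10 genes together held about 2500 to 6955 of these reads per library, and all 10 passed the minimum mean value of 5 that 15915 genes of the table passed. The sorted cells carried the markers of MuSCs, with Pax7 between 2167 and 3236 and Itga7 between 2010 and 3250. Of the 12 MuSC genes listed, Sdc4 was called in all 3 comparisons, at 7692 and 6224 (control), 1100 and 1049 (mdx) and 2753 and 2822 (Sirt6-labelled), and Heyl was called lower in Sirt6mKO/mdx against control (-1.04, adjusted p 0.0299). Markers of other cells were present too. The summed level of 10 myofibre genes was 8264 and 10682 (control), 6063 and 2102 (mdx) and 12250 and 6115 (Sirt6-labelled), with 4 of 10 called lower in mdx than in control and 4 called higher in Sirt6mKO/mdx against mdx. That of 8 fibro-adipogenic genes was 20887 and 27586 (control), 39032 and 31981 (mdx) and 21323 and 28822 (Sirt6-labelled), most of it from the collagen gene Col3a1. Of these, Col1a1 and Ly6a were called higher in mdx than in control, Col1a1 was called lower in Sirt6mKO/mdx against mdx, and Pdgfra ranged from 15 to 195 over the 6 libraries. The 7 endothelial genes summed to 244 and 177 (control), 52 and 79 (mdx) and 120 and 181 (Sirt6-labelled), with 2 of 5 tested called lower in mdx. The 8 macrophage and leukocyte genes summed to 83 to 200, with Ptprc and C1qa at 0 in both control libraries. Among them Lyz2 was called higher than control in both other groups, and Cd68 was called lower in mdx, at 30 and 26 against 86 and 88. The 6 smooth muscle and pericyte genes summed to 6634 to 8257 in control, 4365 to 5610 in mdx and 3127 to 3567 in the Sirt6-labelled libraries, mostly from Notch3, which MuSCs also express. Notch3 was called lower in Sirt6mKO/mdx against control and the pericyte gene Abcc9 lower in mdx against control. The 6 erythroid genes summed to 19 to 56 in control, 7 to 14 in mdx and 39 to 91 in the Sirt6-labelled libraries, with the globin gene Hbb-bs called higher in Sirt6mKO/mdx against mdx. The 5 Schwann cell genes summed to 23 to 76, with none called in limma and 0, 1 and 1 at an unadjusted p under 0.05 in the 3 comparisons. In bulk samples, fewer cells of a type and less RNA per cell cannot be told apart. The study's methods call the 2 libraries of a group biological replicates, while the labels do not say from which animals they came, so the p-values measure the spread between these libraries.

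Several library properties bear on every comparison. Sirt6 itself did not separate the groups, with 41 and 32 (control), 33 and 40 (mdx) and 37 and 30 (Sirt6-labelled). The gene-level value sums all exons, and at this level a loss of internal exons may not be visible. The study reports efficient deletion by PCR in MuSCs of Sirt6mKO mice, and it measured Sirt6 by RT-qPCR in MuSCs of the genotypes compared here. Since the loss was not seen in these libraries, the third group is named by its label, as the Sirt6-labelled libraries. Xist, the RNA of the inactive X chromosome in female cells, was 16772 and 12950 in control against 7 to 34 in the other 4 libraries, so sex and genotype cannot be told apart in a comparison with control. All 10 genes are autosomal. The summed level of 28 immediate early and dissociation response genes was 183974 and 206177 (control), 25339 and 28145 (mdx) and 143787 and 137735 (Sirt6-labelled). The summed level of 20 proliferation genes was 1923 and 1857 (control), 2763 and 3869 (mdx) and 1552 and 2443 (Sirt6-labelled), highest in mdx. The part of these properties and of the other cell types in the results below was not tested.

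The starts of 3 PRC1 genes are shown, since Rnf2 and Bmi1 gave the larger differences of mdx from control in this complex and Ring1, the paralog of Rnf2, was lower in mdx. Each line is the 250 bases before the start of the gene in RefSeq on GRCm38.p6, read 5′ to 3′ on the strand of the gene, with GC boxes (GGGCGG, or CCGCCC where the box lies on the other strand) in capitals. The windows are chr1:151500992-151501241 on the minus strand for Rnf2, chr2:18676768-18677017 on the plus strand for Bmi1 and chr17:34024681-34024930 on the minus strand for Ring1. No annotated exon lies in any of the 3 windows.
Rnf2: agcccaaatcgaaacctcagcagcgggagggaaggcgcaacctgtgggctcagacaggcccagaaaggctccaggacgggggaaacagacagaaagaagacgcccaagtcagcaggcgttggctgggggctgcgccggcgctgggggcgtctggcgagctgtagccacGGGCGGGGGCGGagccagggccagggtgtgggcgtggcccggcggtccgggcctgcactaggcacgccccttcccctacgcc
Bmi1: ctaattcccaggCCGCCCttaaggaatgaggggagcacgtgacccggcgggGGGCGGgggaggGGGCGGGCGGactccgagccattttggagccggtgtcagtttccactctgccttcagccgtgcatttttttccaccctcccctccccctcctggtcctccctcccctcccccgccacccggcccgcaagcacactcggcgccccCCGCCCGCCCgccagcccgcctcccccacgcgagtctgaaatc
Ring1: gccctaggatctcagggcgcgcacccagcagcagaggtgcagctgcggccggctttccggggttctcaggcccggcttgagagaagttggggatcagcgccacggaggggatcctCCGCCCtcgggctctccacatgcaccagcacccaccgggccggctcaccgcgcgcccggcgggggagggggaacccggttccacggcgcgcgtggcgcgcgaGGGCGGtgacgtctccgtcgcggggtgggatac
The Bmi1 window held 6 GC boxes, some of them overlapping each other, and the windows of Rnf2 and Ring1 held 2 each. Of 32851 mouse promoter windows of the same length, 32.7% held at least 1 such box on either strand. These windows were rich in CpG, with 20 CpG in Rnf2, 21 in Bmi1 and 30 in Ring1 against a median of 6 over all promoters. A match is a description of the letters and not of binding.

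The first question was how the Polycomb genes differed in dystrophic MuSCs from those of control mice. Bmi1, which encodes the PCGF subunit that stimulates the ubiquitin ligase of canonical PRC1, was the one gene of the 10 whose difference passed the test. Its value was 279 and 317 (control), 665 and 519 (mdx) and 331 and 514 (Sirt6-labelled). Both mdx libraries were above both control libraries. The difference of mdx from control was 0.98 ± 0.27 (log2 fold change of the value + 1 ± SE, n = 2 against 2), a 1.97-fold increase just short of the 2-fold minimum, with an adjusted p of 0.0235 in the limma fit over 15915 genes. It did not pass without control replicate 1 (log2 fold change 0.89, adjusted p 0.119), without mdx replicate 1 (0.80, adjusted p 0.223) or without mdx replicate 2 (1.16, adjusted p 0.062). With no minimum mean the adjusted p was 0.123, and with 1 prior variance for all genes it was 0.152. Centring each library on the trend of its values with GC content lowered it to 0.41 (adjusted p 0.294).

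Rnf2, the main ubiquitin ligase of PRC1 and also called Ring1b, had values of 145 and 174 (control), 316 and 232 (mdx) and 308 and 369 (Sirt6-labelled). All 4 mdx-background libraries were above both control libraries. The mdx difference was 0.77 ± 0.28 and did not pass (adjusted p 0.0709). Ring1, its paralog, went the other way, with 202 and 159 (control), 140 and 112 (mdx) and 158 and 130 (Sirt6-labelled). Neither mdx library reached a control library, yet the difference of -0.51 ± 0.30 did not pass (adjusted p 0.272). Cbx7, a reader of H3K27me3 in canonical PRC1, was spread widely within control, at 269 and 93, and its mdx values of 225 and 163 lay between them.

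Among the PRC2 genes none passed the test in this comparison. Rbbp4, a histone-binding subunit that PRC2 shares with other chromatin complexes, came closest. Its value was 758 and 787 (control), 1172 and 1086 (mdx) and 820 and 1002 (Sirt6-labelled), so that the mdx libraries were the highest of the 6. The mdx difference was 0.55 ± 0.24 (adjusted p 0.135). Jarid2, which helps bring PRC2 to its targets, was 769 and 925 in control against 673 and 638 in mdx. The groups did not overlap, and the difference of -0.36 ± 0.24 did not pass (adjusted p 0.329). Suz12, the scaffold of PRC2, was 246 and 228 in control against 212 and 297 in mdx, with the control values inside the mdx range. Eed, the subunit that binds H3K27me3 and stimulates the enzyme, was 163 and 147 in control against 196 and 188 in mdx, a difference of 0.31 ± 0.28 (adjusted p 0.488).

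Neither catalytic subunit of PRC2 passed in this comparison. Ezh2 was 515 and 339 in control against 378 and 350 in mdx, so that both mdx values lay inside the control range, and the difference was -0.20 ± 0.26 (adjusted p 0.643, 95% interval -0.75 to 0.35). In the same libraries the proliferation marker Mki67 was 39 and 80 in control against 252 and 548 in mdx, and 9 of the 20 proliferation genes were called higher in mdx. Pcna, a replication gene of the same list, passed in the other direction, at 764 and 490 in control against 378 and 290 in mdx (-0.88, adjusted p 0.0448). The sign of the Ezh2 difference rested on 1 library, since it was 0.10 without control replicate 1. Ezh1 was 449 and 473 in control against 578 and 475 in mdx, a difference of 0.18 ± 0.24 (adjusted p 0.642).

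Over the 10 genes, 1 reached an adjusted p of 0.05 or lower in mdx against control, where 16.6% of all genes tested did. None was also changed at least 2-fold, the criterion for a call, which 14.2% of all genes met. By limma with an unadjusted p under 0.05 the number was 3, against 31.0% of all genes. Between mdx and control 5 of the 10 genes were higher without overlap and 2 were lower, and 57.0% of all genes tested had groups without overlap. The median difference over the 10 genes was 0.23 against 0.00 over all genes tested. These counts lie near or below the background.

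**Figure D1:**
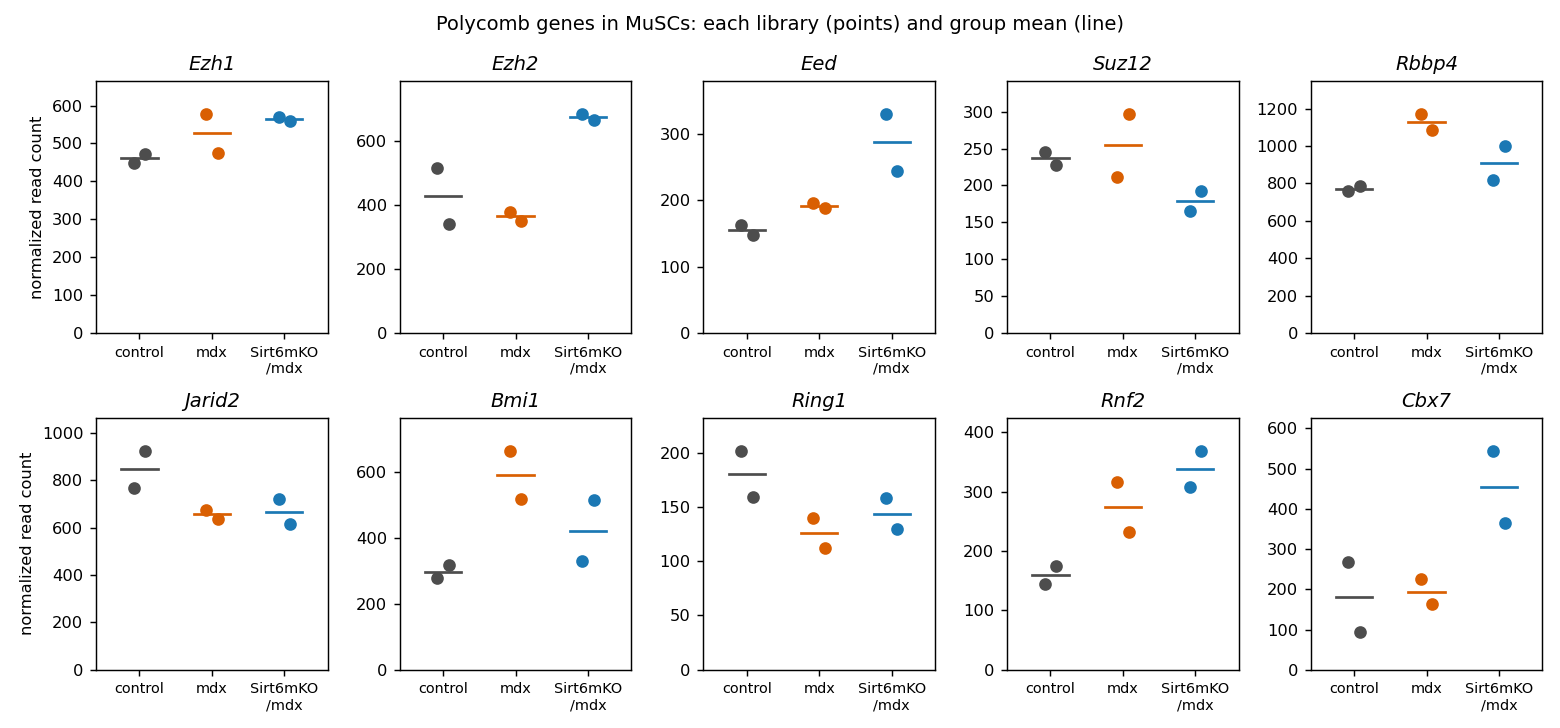
Normalized read count of the 10 Polycomb genes in each of the 6 libraries, one panel per gene with the y axis from 0, points for the libraries and a line for the mean of each group of 2. Bmi1 and Rnf2 are higher in mdx than in control, and Ezh2, Eed and Cbx7 are highest in the Sirt6-labelled libraries.

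The next comparison set the libraries labelled Sirt6mKO/mdx against those of mdx. Ezh2 was the one gene whose difference passed the test. Its value was 684 and 666 in the Sirt6-labelled libraries against 378 and 350 in mdx, and the higher control library reached 515. Both Sirt6-labelled libraries were above the other 4. The difference was 0.89 ± 0.26 (95% interval 0.34 to 1.44), a 1.85-fold increase with an adjusted p of 0.0446. Mki67 moved in the opposite direction, at 99 and 162 against 252 and 548 in mdx. Of the 20 proliferation genes, 5 were called lower in this comparison, where 8.17% of all genes were called in either direction. In this list 17 differences lay below 0 and 3 above 0, among them Ccnb1 (0.51). The 3 libraries with the highest Ezh2 values also had the 3 lowest size factors of the series, between 0.537 and 0.6619 against at least 1.2848 in the other 3, and the part of depth in this result was not tested. The difference stayed between 0.83 and 0.95 when any 1 library was left out, but it no longer passed when either mdx library or either Sirt6-labelled library was the one left out (adjusted p 0.176, 0.211, 0.268 and 0.195). Nor did it pass with log2(value + 0.1) (adjusted p 0.0576), with no minimum mean (0.164) or with 1 prior variance for all genes (0.222). With scaling to summed values the difference was 0.26 (adjusted p 0.537).

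Cbx7 showed the widest difference of the 10 genes in this comparison without passing the test. Its value was 545 and 365 in the Sirt6-labelled libraries against 225 and 163 in mdx, with no overlap. Its highest values of the series, these and the 269 of control replicate 1, fell in the libraries with the lowest size factors. The part of depth was not tested here either. The difference was 1.22 ± 0.40 and the adjusted p 0.0717. It passed with voom weights (adjusted p 0.0462), in a fit of the 4 libraries alone (0.0186), with the replicate number as a block (0.0127), and without either control library (0.0205 and 0.0192), the control libraries entering only through the shared spread. It did not pass under the remaining settings, with an adjusted p of 0.325 with no minimum mean, 0.3 with 1 prior variance, 0.132 with a robust prior variance, 0.161 after GC centring, and 0.198, 0.35, 0.459 and 0.18 without either mdx or either Sirt6-labelled library. With scaling to summed values the difference was 0.59 (adjusted p 0.263). Eed was 330 and 244 against 196 and 188, again above both mdx libraries, with a difference of 0.56 ± 0.28 (adjusted p 0.225).

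Other members lay lower than in mdx or level with it. Suz12 was 166 and 192 in the Sirt6-labelled libraries against 212 and 297 in mdx, lower without overlap, and the difference of -0.49 ± 0.28 did not pass (adjusted p 0.292). Rbbp4, at 820 and 1002, was below both mdx libraries (-0.32 ± 0.24, adjusted p 0.449). So was Bmi1, at 331 and 514, where the higher library came close to the lower mdx value of 519 (-0.51 ± 0.27, adjusted p 0.262). Rnf2, Ring1, Ezh1 and Jarid2 overlapped mdx, with differences of 0.32, 0.19, 0.11 and 0.02 and adjusted p-values between 0.516 and 0.968.

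In this comparison 1 of the 10 genes reached an adjusted p of 0.05 or lower, against 9.15% of all genes tested. None was called, against 8.17% of all genes, and 2 had an unadjusted p under 0.05 in limma, against 25.2%. Without overlap 3 genes were higher and 3 lower, and 56.0% of all genes tested had groups without overlap. The median difference was 0.15 against 0.02 over all genes. Scaling the libraries to their summed values took the median of all genes from 0.02 to -0.58 in this comparison. Ezh1, Eed, Jarid2, Ring1 and Rnf2 then changed sign, and the difference of Ezh2 was 0.26 (adjusted p 0.537). Under the same scaling Suz12 (-1.11, adjusted p 0.0216) and Bmi1 (-1.14, adjusted p 0.0165) were called lower than in mdx, and Rbbp4 passed at -0.94 (adjusted p 0.0268).

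Against control, 2 of the 10 genes were called in the Sirt6-labelled libraries. Rnf2 was 2.12-fold higher, at 308 and 369 against 145 and 174, a difference of 1.08 ± 0.28 (95% interval 0.49 to 1.67, adjusted p 0.0245). Cbx7 was 2.81-fold higher, at 545 and 365 against 269 and 93, a difference of 1.49 ± 0.40 (95% interval 0.63 to 2.34, adjusted p 0.0313). For both genes the Sirt6-labelled libraries were above the control libraries without overlap. The higher control value of Cbx7 came from the control library with the lower size factor, and the part of depth was not tested. Neither call held with no minimum mean (adjusted p 0.111 for Rnf2 and 0.251 for Cbx7) or with 1 prior variance for all genes (0.165 and 0.238). That of Rnf2 was also lost on GC centring (0.79, adjusted p 0.075), and that of Cbx7 with log2(value + 0.1) (adjusted p 0.0518), with a robust prior variance (0.0744) and in the fit of only the 2 groups (0.0706). The size of the Cbx7 difference rested on the control libraries, being 2.25 when control replicate 1 was left out and 0.73 when control replicate 2 was (adjusted p 0.269). It also lost its call without either mdx library (adjusted p 0.0677 and 0.0682) or either Sirt6-labelled library (0.283 and 0.164). Rnf2 lay between 0.95 and 1.21 with any 1 library left out and lost its call without either control library (adjusted p 0.0841 and 0.0606) or either Sirt6-labelled library (0.111 and 0.23).

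Eed and Ezh2 were next in size. Eed differed from control by 0.87 ± 0.28 (adjusted p 0.0648) and Ezh2 by 0.69 ± 0.26 (adjusted p 0.115). Suz12 (-0.41), Jarid2 (-0.34) and Ring1 (-0.32) were lower than control and Bmi1 (0.47), Ezh1 (0.29) and Rbbp4 (0.23) higher, with adjusted p-values between 0.315 and 0.608. The values of Jarid2 were 721 and 614 and those of Ezh1 570 and 560, outside the control range in both cases.

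All 10 genes had groups without overlap in this comparison, 7 higher and 3 lower, where 51.6% of all genes tested had such groups. At an adjusted p of at most 0.05 the number was 2 of 10 against 8.90% of all genes, and the 2 calls compare with 7.87% of all genes. The median difference was 0.38 against 0.01. The genes of a complex are not replicates of each other, and these counts describe the 10 genes without a test of the group. With scaling to summed values the median of all genes was -0.5798, Ezh1, Rbbp4 and Bmi1 turned lower than control, Suz12 was called lower (-1.01, adjusted p 0.0369), and neither Rnf2 (0.48, adjusted p 0.301) nor Cbx7 (0.89, adjusted p 0.0961) passed. The 3 comparisons share their libraries pairwise and are not independent.

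**Figure D2:**
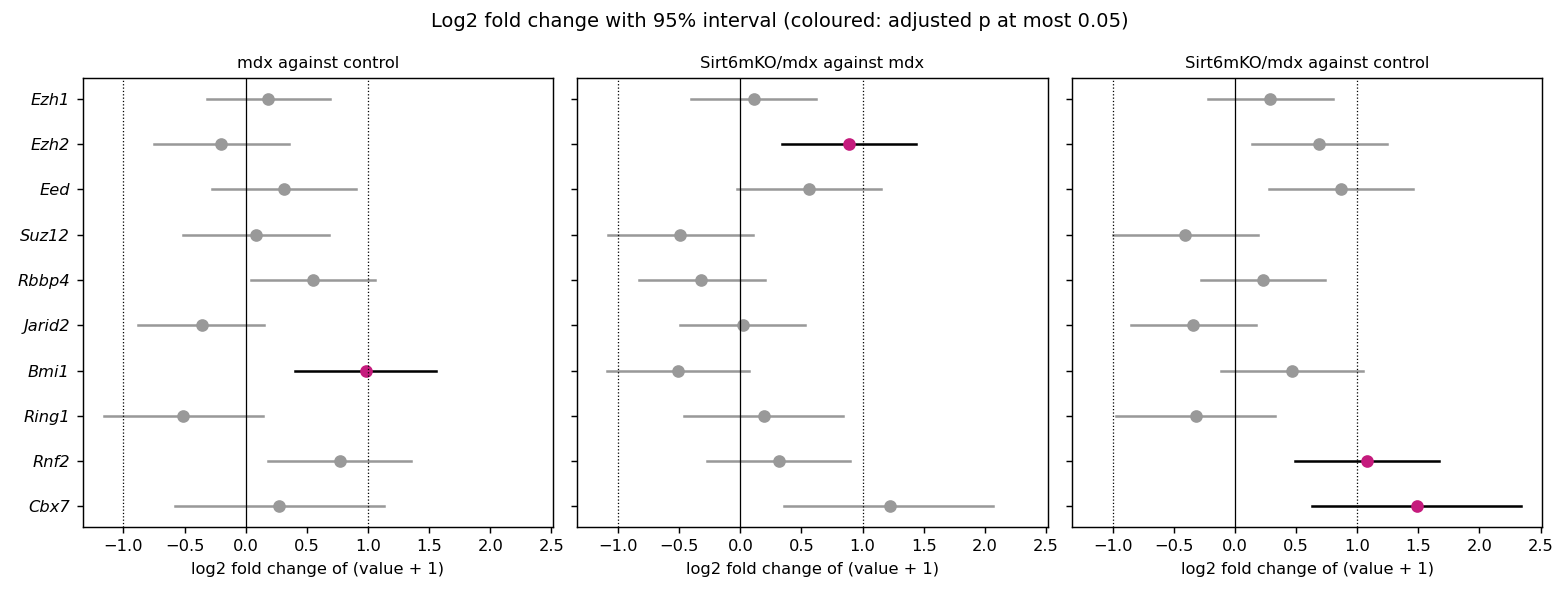
Log2 fold change of the value + 1 (x axis, point) with its 95% interval (line) for each of the 10 genes (y axis) in the 3 comparisons, dotted lines marking 2-fold and coloured points an adjusted p of at most 0.05 in limma. Bmi1 passed in mdx against control, Ezh2 in Sirt6mKO/mdx against mdx, and Rnf2 and Cbx7 in Sirt6mKO/mdx against control.

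Levels of different genes were compared per kb of exon, taking the summed exon length of each gene. In control, Rbbp4 was highest at 88.3 ± 2.3 (mean ± SD, n = 2), followed by Jarid2 at 87.2 ± 11.4, Bmi1 at 75.0 ± 6.8, Ezh2 at 63.9 ± 18.6, Ezh1 at 62.0 ± 2.3, Ring1 at 55.7 ± 9.4, Suz12 at 47.9 ± 2.6, Eed at 40.5 ± 3.0, Rnf2 at 38.6 ± 5.0 and Cbx7 at 27.9 ± 19.2. Only Suz12 and Eed, among neighbours in this order, did not overlap between libraries. In mdx, Bmi1 came first at 149.0 ± 26.0 per kb and Rbbp4 second at 129.1 ± 7.0, both above the other 8 genes, and Cbx7 was again last at 29.9 ± 6.8. In the Sirt6-labelled libraries, Bmi1 (106.3 ± 32.6), Rbbp4 (104.2 ± 14.7) and Ezh2 (101.1 ± 1.9) led the order without separating from each other, and Ring1 (44.4 ± 6.1) and Suz12 (36.2 ± 3.7) came last. All 10 genes lay between the 55.3 and 91.3 percentiles of the genes tested in each group.

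PRC2 carries EZH1 or EZH2 and PRC1 carries RING1 or RNF2, so the ratio within each pair was taken per kb in every library. The Ezh2 to Ezh1 ratio was 1.28 and 0.80 (control), 0.73 and 0.82 (mdx) and 1.34 and 1.32 (Sirt6-labelled). The Sirt6-labelled libraries were above the other 4, although control replicate 1 came close to them, and control and mdx overlapped. The Rnf2 to Ring1 ratio was 0.56 and 0.86 (control), 1.77 and 1.63 (mdx) and 1.53 and 2.23 (Sirt6-labelled). Ring1 thus exceeded Rnf2 in both control libraries and Rnf2 exceeded Ring1 in the other 4. With 2 libraries against 2, an exact permutation test cannot give a two-sided p below 0.333, so these ratios are descriptions. A ratio within a library does not depend on its size factor. The libraries with the highest Ezh2 to Ezh1 ratios, both Sirt6-labelled ones and control replicate 1, nevertheless had the lowest size factors. The part of depth in the Ezh2 to Ezh1 ratio was not tested. The exons of Rnf2 and Ring1 differ in GC content (41.3% and 59.2%), and centring on GC content took the mdx differences from 0.77 to 0.27 for Rnf2 and from -0.51 to -0.28 for Ring1.

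Cbx7 is one of several CBX proteins that canonical PRC1 can use. Of the summed level of Cbx2, Cbx6, Cbx7 and Cbx8 per kb, Cbx7 made up 42.8% and 22.3% (control), 40.4% and 31.9% (mdx) and 66.2% and 53.2% (Sirt6-labelled). Its share was higher in both Sirt6-labelled libraries than in any other library. Control replicate 1 came next, and these were the libraries with the lowest size factors. The part of depth in this share was not tested. Cbx6 made up 36.3% and 43.4% in mdx and 11.7% and 13.8% in the Sirt6-labelled libraries, and Cbx8 was lowest in mdx, at 8.2% and 8.0% against 16.0% and 20.7% in control. Among the 6 PCGF genes, Bmi1 (Pcgf4) made up 51.4% and 52.1% of the summed level per kb (control), against 66.4% and 59.0% (mdx) and 45.7% and 64.8% (Sirt6-labelled). It was the leading PCGF gene in all 6 libraries.

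**Figure D3:**
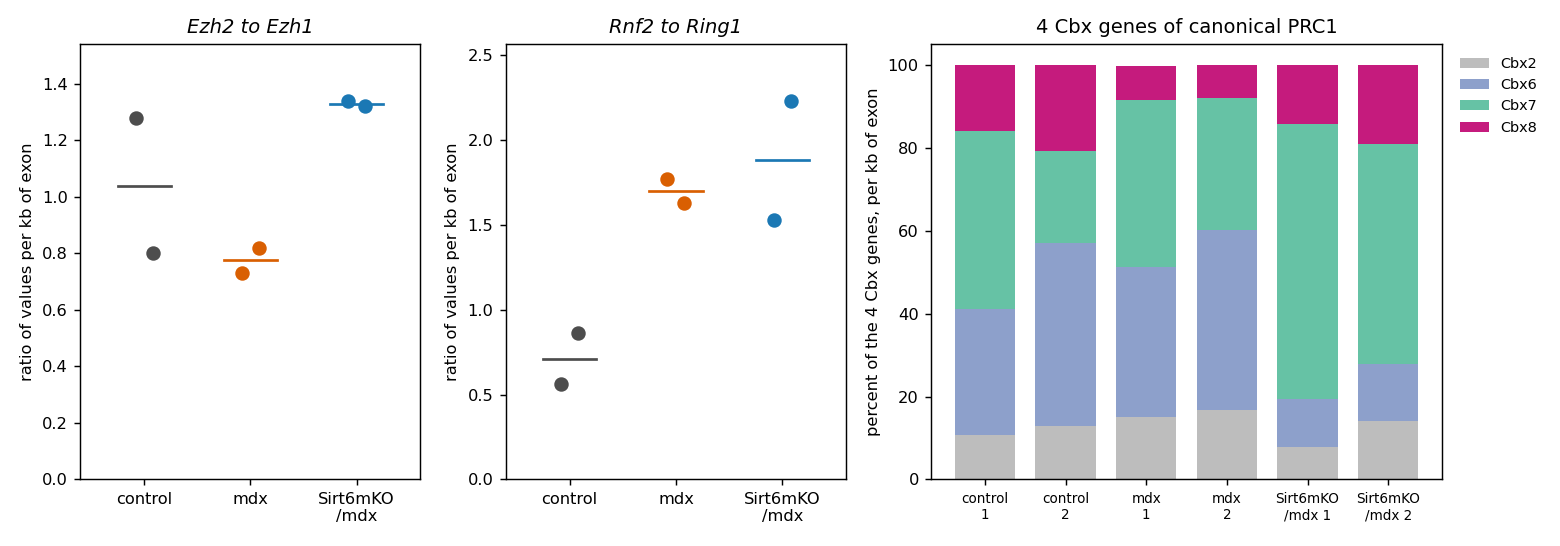
Left and middle, ratio of the values per kb of exon of Ezh2 to Ezh1 and of Rnf2 to Ring1 in each library (points) with the group mean (line), on axes from 0. Right, percent of the summed level of 4 Cbx genes per kb in each library. The Rnf2 to Ring1 ratio is below 1 in control and above 1 in the other 4 libraries, and Cbx7 takes 66.2% and 53.2% in the Sirt6-labelled libraries.

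Of the other PRC2 genes, 8 of 9 were in the table and none passed in any of the 3 comparisons, where the numbers at an unadjusted p under 0.05 in limma were 2, 1 and 0 of 8, against 31.0%, 25.2% and 24.1% of all genes. Rbbp7, the paralog of Rbbp4, was 817 and 1027 (control), 1198 and 1046 (mdx) and 802 and 916 (Sirt6-labelled). Over the 6 libraries the accessory subunits Aebp2, Mtf2 and Phf1 ranged from 202 to 418, from 158 to 247 and from 138 to 212. Phf19 was between 6 and 31. Epop was 39 and 8 (control), 1 and 3 (mdx) and 15 and 4 (Sirt6-labelled). It was lower in mdx than in control without overlap, and the difference of -2.75 ± 1.03 did not pass (adjusted p 0.0833). At low values of this kind differences of several-fold can go undetected. The 95% intervals in mdx against control were -2.23 to 0.95 for Phf19 and -4.95 to -0.54 for Epop.

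Calls on the 32 other PRC1 genes in mdx against control were 2 upward and 2 downward, where 14.2% of all genes were called. In Sirt6mKO/mdx against mdx 1 was called higher and 2 lower, against 8.17% of all genes, and in Sirt6mKO/mdx against control 1 was called higher, against 7.87%. These shares lie near or below the background. Rybp, the subunit of variant PRC1 that takes the place of a CBX protein, was 228 and 190 (control), 43 and 47 (mdx) and 96 and 97 (Sirt6-labelled). It was lower in mdx by -2.19 ± 0.34 (log2, adjusted p 4.5e-04). Its paralog Yaf2 was higher in mdx, at 207 and 141 against 51 and 94 (1.29 ± 0.36, adjusted p 0.0244). Skp1a, a partner of the PCGF1 form of PRC1 and of many other ubiquitin ligases, was 521 and 522 (control), 1298 and 872 (mdx) and 978 and 1255 (Sirt6-labelled). It was called higher than control in both (adjusted p 0.0151 and 0.0188). E2f6, a DNA-binding subunit of the PCGF6 form, was lower in mdx, at 115 and 130 against 233 and 282 (-1.06 ± 0.29, adjusted p 0.021).

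Cbx6 was lower in the Sirt6-labelled libraries, at 158 and 155 against 331 and 362 in mdx (-1.14 ± 0.25, adjusted p 0.0122), and so was Pcgf3, at 190 and 209 against 350 and 461 (-1.01 ± 0.28, adjusted p 0.0366). Bcorl1, an X-linked partner of the PCGF1 form, was higher in the Sirt6-labelled libraries than in mdx, at 257 and 218 against 88 and 129 (adjusted p 0.0278).

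Enzymes and complexes that oppose Polycomb repression were followed in a list of 17 genes, of which 16 were tested. Kdm6b, a demethylase that removes H3K27me3, gave the widest changes of this list. Its value was 1846 and 1019 (control), 184 and 337 (mdx) and 1393 and 1022 (Sirt6-labelled). It was lower in mdx than in control (-2.46 ± 0.33, adjusted p 1.5e-04) and higher in the Sirt6-labelled libraries than in mdx (2.26 ± 0.33, adjusted p 6.3e-04). The immediate early list had the same order of groups, with 27 of 28 genes called lower in mdx and 27 of 28 called higher in Sirt6mKO/mdx against mdx. Whether Kdm6b and Rybp moved with that response was not tested. The other H3K27me3 demethylase gene, the X-linked Kdm6a, was 986 and 806 in control against 468 to 616 in the other 4 libraries (adjusted p 0.057 in mdx), and the control libraries were also those with Xist. Smarcb1, a subunit of SWI/SNF complexes, was called lower in Sirt6mKO/mdx against mdx, at 96 and 115 against 202 and 309 (-1.24 ± 0.30, adjusted p 0.02). Of the 16 genes, 1 was called in mdx against control, 2 in Sirt6mKO/mdx against mdx and none in Sirt6mKO/mdx against control, where 14.2%, 8.17% and 7.87% of all genes were called. At an adjusted p of at most 0.05 in limma, 1 was higher and 3 were lower in mdx against control, where 16.6% of all genes passed. In the other 2 comparisons no gene passed beyond those called. In limma 8, 7 and 4 of the 16 had an unadjusted p under 0.05, against 31.0%, 25.2% and 24.1% of all genes. Without overlap 2, 7 and 1 were higher and 12, 4 and 10 lower, against 57.0%, 56.0% and 51.6% of all genes. The median of this list was -0.44 in mdx against control, 0.17 in Sirt6mKO/mdx against mdx and -0.25 in Sirt6mKO/mdx against control.

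**Figure D4:**
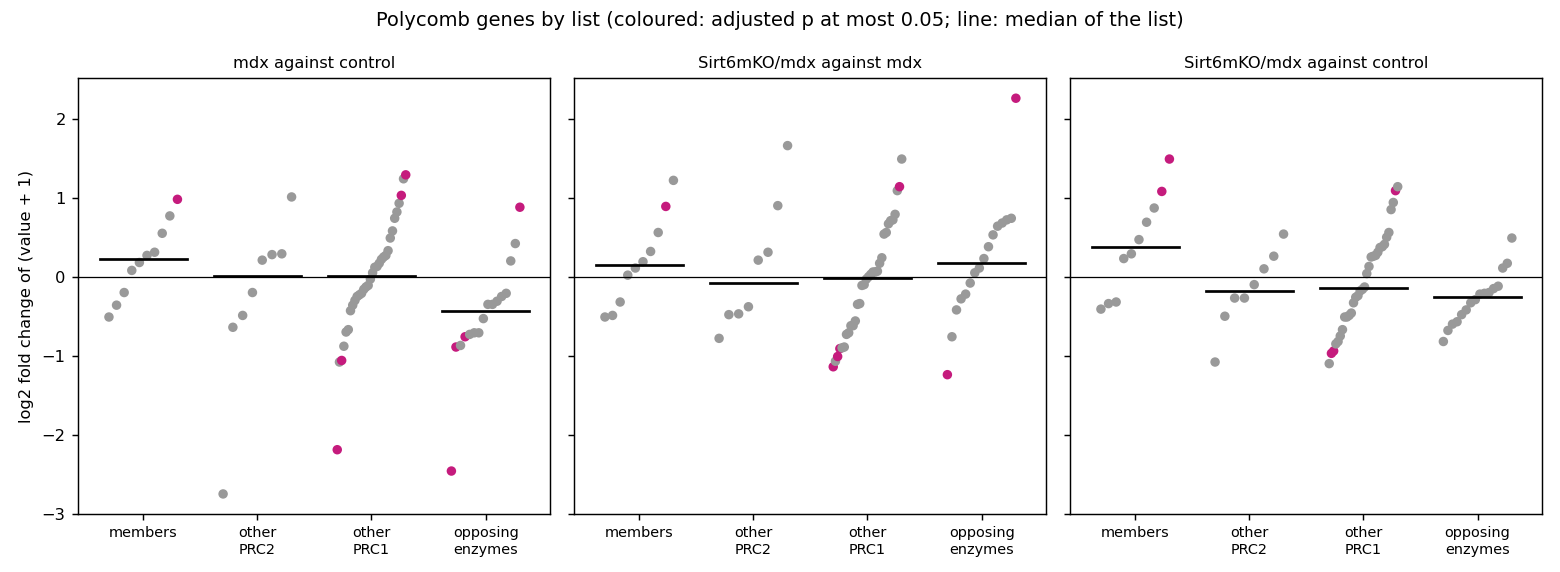
Log2 fold change of the value + 1 (y axis) of each tested gene in 4 lists (x axis) for the 3 comparisons, with the median of each list as a line and coloured points for an adjusted p of at most 0.05 in limma. The lowest coloured point in mdx against control, at -2.46, and the highest in Sirt6mKO/mdx against mdx, at 2.26, are both Kdm6b.

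Genes that Polycomb complexes are known to silence were mostly near 0. Of 18 listed, 11 were in the table and 3 reached the minimum mean. The 11 genes summed to 12 and 15 (control), 118 and 52 (mdx) and 72 and 42 (Sirt6-labelled). Cdkn2a, the locus that BMI1 is known to hold down, was 2 and 0 (control), 70 and 13 (mdx) and 26 and 9 (Sirt6-labelled). It was called higher in mdx (adjusted p 0.0108), with control so close to 0 that the fold is not given, and the mdx libraries differed widely from each other. Bmi1 and Cdkn2a were thus both higher in mdx than in control. Cdkn2b, at 3 to 25, and Pax6, at 2 to 16, did not pass. Of the genes below the minimum mean, which were not tested, the lineage gene Foxa1 was 0 and 0 (control), 3 and 2 (mdx) and 6 and 15 (Sirt6-labelled). Gata6, Sox17, Sox1, Neurog2, Lhx1, Tbx5 and Wt1 did not exceed 4 in any library, and at this depth a difference between groups was not detectable for them.

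Over the 6 libraries, the genes whose pattern was most like that of Ezh2 were Rabac1 (Pearson r = 0.999 of log2 values), the small nucleolar RNA Snora21 (0.996) and Nfatc2 (0.993). For Ezh1 they were Slc48a1 (0.987), Arl6ip5 (0.987) and Fbxo8 (0.984). They led 9666 genes whose mean was 50 or more, and the 6 points share the groups and size factors of the libraries. Rabac1 was 570 and 536 in the Sirt6-labelled libraries against 180 to 341 in the other 4, the same order as Ezh2.

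Exons of Ezh2, Eed, Suz12, Rbbp4, Rnf2 and Cbx7 share bases with another annotated gene, for example Trmt1l for Rnf2 and Apobec3 for Cbx7. Whether strand was used in counting is not given in the sources used here, so reads of such neighbours may enter or leave these values. The remaining 4 genes share no exon bases with another gene.

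**Figure D5:**
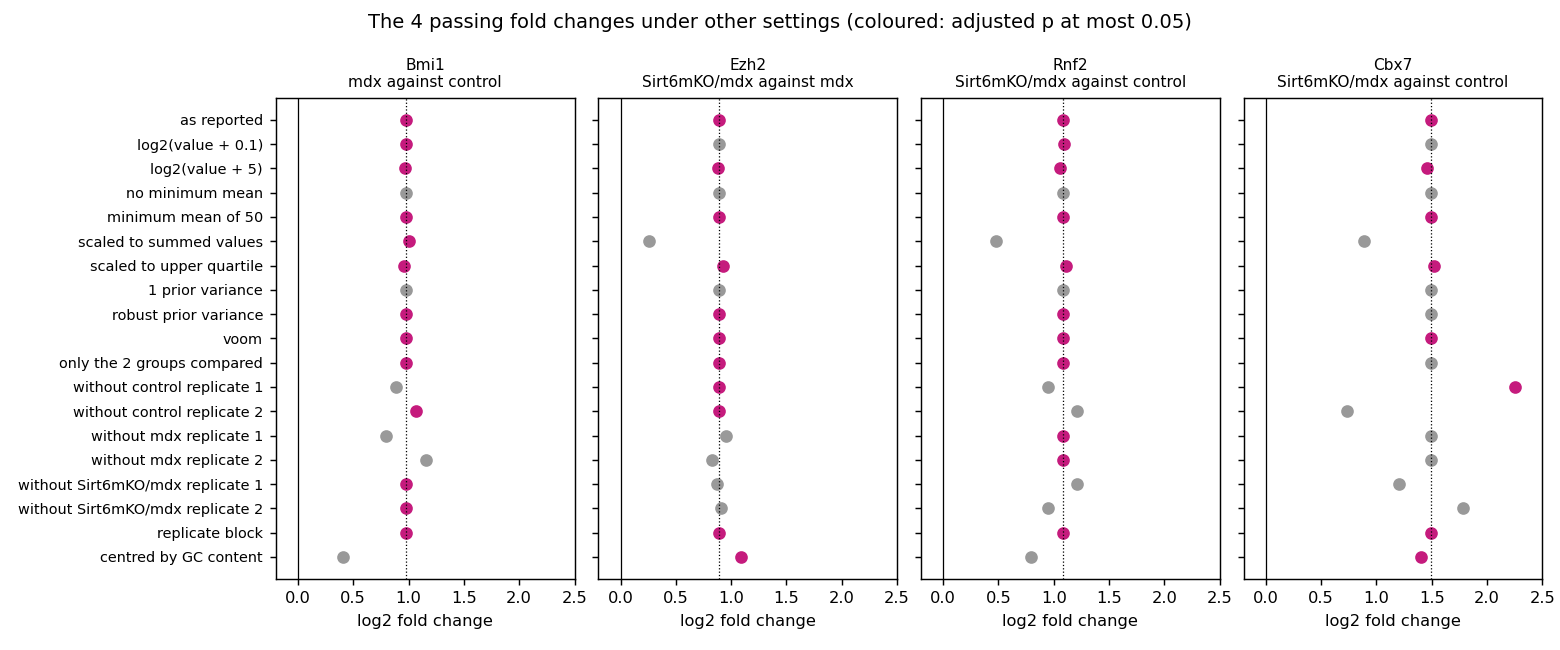
Log2 fold change (x axis) of the 4 differences with an adjusted p of at most 0.05 under the reported and 18 other settings of the fit (y axis), coloured where the adjusted p is at most 0.05, with the reported value as a dotted line. All points lie above 0, while none of the 4 differences passed under every setting.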

How the data were processed

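RNA of FACS-sorted MuSCs (Integrin-a7+/CD34+ or a reporter, after removal of Sca1+, CD45+ and CD31+ cells) was sequenced on an Ion Torrent instrument. Per the study's methods, reads were aligned to mm10 with STAR and counted on exons with featureCounts. The submitters' processing notes give STAR 2.4.2a, where the methods name another release of STAR, and featureCounts 1.4.5-p1. Reads placed on several genes or sites were left out. The deposited values are a score, that is, counts that the authors divided by DESeq2 size factors and rounded to whole numbers before deposit, so no count model was run. Size factors recovered from the spacing of low values (0.537 to 1.5268) gave the approximate reads. Depth limits precision most where values are low.

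Differences were tested in limma 3.58.1 (R 4.3.3) on log2(value + 1), keeping genes whose mean was 5 or more, in 1 fit of all 6 libraries with a prior variance that follows the mean. P-values were two-sided and Benjamini-Hochberg adjusted over 15915 genes. A gene was called at an adjusted p of at most 0.05 and at least 2-fold. The fold changes understate the change of low genes. The fit was tested on simulated data. Exon lengths are from GENCODE M21 and promoters from RefSeq. The 10 genes and the gene lists were chosen with earlier results of these data known. The named genes are the 10 members, the genes of each list called in at least 1 comparison (at most 6 per list, by size of change), 6 other PRC2 subunits, the 3 genes most like Ezh1 or Ezh2, and checks of the libraries. 1 gene of the PRC1 list is not reported here and was left out of the counts of that list. E2f6, Pcgf3, Pcna, C1qa, Col3a1, Notch3, Kdm6a, Cdkn2b, Pax6 and the untested Polycomb target genes were chosen after their values were seen. Alternatives were other offsets, minimum means, scalings, prior variances, voom, fits of 2 groups, leaving out each library, a replicate block, and centring on GC content, which was chosen after seeing the data.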

Additional observations from a re-analysis of the deposited data

How the results depend on the processing

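The number of Polycomb genes called was 0, 0 and 2 in mdx against control, Sirt6mKO/mdx against mdx and Sirt6mKO/mdx against control, and 1, 1 and 2 had an adjusted p of at most 0.05. With no minimum mean, or with 1 prior variance for all genes, none was called or passed in any comparison, and the calls over all genes fell from 2265, 1300 and 1253 to 406, 19 and 2 or to 541, 0 and 87. With log2(value + 0.1), none passed in Sirt6mKO/mdx against mdx and 1 was called and passed against control. Scaling to summed values gave 1, 2 and 1 calls, 3 passing in Sirt6mKO/mdx against mdx, and 3411 and 3147 calls over all genes in the comparisons of Sirt6mKO/mdx with mdx and with control. It turned the log2 fold changes against mdx of Ezh1 (-0.52), Eed (-0.06), Jarid2 (-0.60), Ring1 (-0.43) and Rnf2 (-0.31), and against control those of Ezh1 (-0.31), Rbbp4 (-0.37) and Bmi1 (-0.13). Voom and the fit of only the 2 groups each gave 1 call and 2 passing in Sirt6mKO/mdx against mdx. A robust prior variance and the fit of only the 2 groups each left 1 called and passing against control. GC centring, chosen after seeing the data, left 0 passing in mdx, 1 call in Sirt6mKO/mdx against mdx and 1 call and 1 passing against control, with Suz12 at -0.45 in mdx and Ring1 at -0.24 in Sirt6mKO/mdx against mdx. The cause of these changes was not tested.

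Leaving out 1 library at a time gave 0 to 1 calls in each comparison, and 0 to 1, 0 to 2 and 0 to 2 passing. A group left with 1 library is assumed to vary like the others. Calls over all genes ranged from 939 to 2356, 203 to 1475 and 213 to 1314. Signs changed for Ezh2 (-0.50 to 0.10), Suz12 (-0.16 to 0.33) and Cbx7 (-0.49 to 1.03) in mdx against control and for Ezh1 (-0.03 to 0.25) and Jarid2 (-0.09 to 0.14) in Sirt6mKO/mdx against mdx. Replicate numbers are shared by the groups, but the labels do not say that a number marks a shared animal or batch, and same-numbered libraries did not deviate together (r = -0.128, 0.119 and 0.00934 for the 3 pairs of groups). With the replicate number as a block, 1 gene was called and 2 passed in Sirt6mKO/mdx against mdx, Cbx7 being the gene added, and no other call on the 10 genes changed. The planned count models were not run, since the deposited values are not raw counts.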
